A study of Rattus norvegicus with 9 samples.

Results

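The genes described here are 44 cell cycle and proliferation genes, chosen by name to cover the steps from G1 to cytokinesis, in RNA sequencing of the injured rat spinal cord. A row was analysed for 43 of them, among the 30507 rows of the count table (22777 of them above 0 somewhere). E2f1 was not analysed here. The 43 genes were grouped by role into 10 G1 regulators, 2 transcription factors of the cycle, 11 DNA replication genes and 20 genes of G2 and mitosis. All animals were female wild-type Sprague-Dawley rats, bought at 8 weeks of age. The Sham group had a laminectomy without contusion (its labels give no treatment), the SCI group had a contusion of the cord at T10, and the SCI + SCS group had the same contusion, an implanted epidural electrode and daily high-frequency stimulation (HF-SCS). Each group held 3 rats, taken at 35 days post-injury (dpi), and RNA came from whole tissue of the T9-T11 segments, so the libraries held the lesion and the cells around it. SCI rats carried an electrode plug without an electrode, so stimulation and the implant cannot be told apart in the comparison of SCI + SCS with SCI. Rats with implanted electrodes and no current were not analysed here.

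The cell cycle is driven by cyclin-dependent kinases, which are active only when bound to a cyclin. D-type cyclins with CDK4 or CDK6, then E-type cyclins with CDK2, release E2F transcription factors from the retinoblastoma protein family, and E2F switches on the genes for DNA replication. A second wave of genes, switched on later through the MuvB complex with B-MYB and FOXM1, carries the cell through G2 and mitosis. In the uninjured adult spinal cord few cells divide, and after injury microglia, infiltrating leukocytes, fibroblasts, astrocytes, oligodendrocyte precursors and ependymal cells are known to proliferate.

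Sequencing depth ran from 62844376 to 88358570 counts per library. Expression is given as CPM, i.e. the count scaled to the depth of the library, and 3 counts, taken here as the floor of detection, stood for 0.034 to 0.0477 CPM. Such floors cover counting error only. Neuron and oligodendrocyte markers were present in every Sham library, as the labelled tissue requires, with summed levels of 4814 to 10825 CPM and 59129 to 82941 CPM. Sham replicate 1 stood apart. It had the highest neuron level of the 9 libraries, the lowest fibroblast level (463 CPM, against 1328 and 2118 CPM in the other Sham libraries) and the lowest level of 30 of the 43 cell cycle genes. Summed skeletal muscle markers were at 4063 CPM in SCI replicate 1 and 1242 CPM in SCI replicate 3, but at 35.8 CPM in SCI replicate 2 and at 43.4 to 141 CPM in the 6 other libraries. Counts of cell cycle genes are therefore given below with and without single libraries. Summed adipocyte markers were at 19.9 to 26.2 CPM in Sham, 117 to 150 CPM in SCI and 39.0 to 62.8 CPM in SCI + SCS. These groups did not overlap, so leaving out single libraries does not remove the difference, and its part in the results was not tested.

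Promoter motifs differed between the replication genes and the G2 and mitosis genes. Promoter sequences from RefSeq, on the GRCr8 assembly, were matched for 31 of the 43 genes, each with 250 bases before and 50 bases after the gene start. Neither transcription factor was among them. An E2F motif (TTTGGCGC, TTTCCCGC, TTTGCCGC or TTTCGCGC, on either strand) was present in 6 of 8 promoters of DNA replication genes (75.0%), 1 of 17 of G2 and mitosis genes (5.88%) and 0 of 6 of G1 regulators. The share among all 24206 rat promoters of this length was 2.28%. The cell cycle genes homology region (CHR; TTTGAA or TTCGAA, on either strand), where MuvB binds, was distributed differently. It was present in 11 of 17 promoters of G2 and mitosis genes (64.7%) and in 2 of 8 of replication genes (25.0%). Among G1 regulators it was in 0 of 6, against 19.6% of all promoters. Among other cell cycle genes that were not members, E2F motifs were in 19 of 40 promoters of replication genes and 1 of 62 promoters of mitosis genes, and CHR motifs in 8 of 40 and 48 of 62. The CCAAT box, the site of NF-Y, which often stands near a CHR, was in 22 of 31 promoters (71.0%), compared with 37.8% of all promoters. By role, it was in 2 of 6 G1 regulators (33.3%), 6 of 8 replication genes and 14 of 17 G2 and mitosis genes. It was also in 11 of 15 promoters of p53 target genes (73.3%), 38 of 62 of other mitosis genes, 20 of 40 of other replication genes and 9 of 21 of other G1 genes. A match is a stretch of letters and not a measured binding site.

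**Figure D1:**
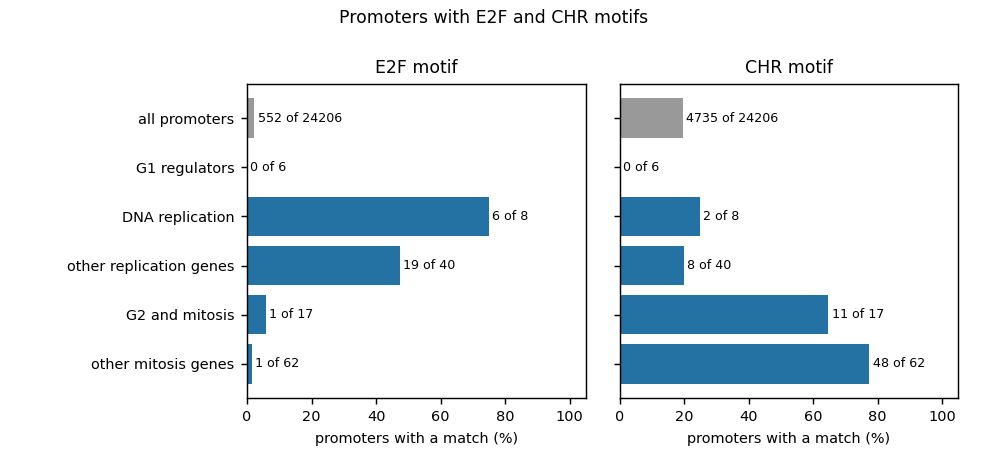
Percentage of promoters with at least 1 E2F motif (left) or CHR motif (right), with the number of promoters beside each bar. The grey bar stands for all 24206 rat promoters and the blue bars for the gene groups named on the left. E2F motifs were most frequent in replication genes (6 of 8) and CHR motifs in mitosis genes (11 of 17 and 48 of 62).

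The promoters below are those with an E2F motif (Mcm3 and Cdk1) or a CHR motif (Mcm2 and Top2a) and the largest difference between SCI and Sham among the replication and mitosis genes. They are written 5′ to 3′ on the strand of the gene, with E2F, CHR and CCAAT box matches in capitals (their reverse complements where the match lies on the other strand). Mcm3 lies at chr9:30733697-30733996 (minus strand), Mcm2 at chr4:122918045-122918344 (minus strand), Cdk1 at chr20:19265043-19265342 (plus strand) and Top2a at chr10:84473044-84473343 (minus strand), all on GRCr8. Mcm3 held 2 E2F motifs and 3 CCAAT boxes. Mcm2 held 2 E2F motifs, which overlap as a palindrome, and 2 CHR motifs. Cdk1 held 1 E2F motif, 2 CHR motifs and 3 CCAAT boxes. Top2a held 2 CHR motifs, 4 CCAAT boxes and no E2F motif.
Mcm3: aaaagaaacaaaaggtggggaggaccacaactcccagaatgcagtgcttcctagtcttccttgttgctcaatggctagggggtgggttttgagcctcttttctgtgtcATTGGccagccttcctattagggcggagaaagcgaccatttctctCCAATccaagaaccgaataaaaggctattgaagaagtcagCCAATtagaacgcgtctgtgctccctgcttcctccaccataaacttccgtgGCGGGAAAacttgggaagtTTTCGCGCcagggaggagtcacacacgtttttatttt
Mcm2: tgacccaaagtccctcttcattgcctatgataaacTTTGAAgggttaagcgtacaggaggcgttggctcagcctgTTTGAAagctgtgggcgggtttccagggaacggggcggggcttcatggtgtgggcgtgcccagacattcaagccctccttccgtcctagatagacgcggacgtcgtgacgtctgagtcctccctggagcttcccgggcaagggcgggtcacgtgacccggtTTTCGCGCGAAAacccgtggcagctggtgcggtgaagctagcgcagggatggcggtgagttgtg
Cdk1: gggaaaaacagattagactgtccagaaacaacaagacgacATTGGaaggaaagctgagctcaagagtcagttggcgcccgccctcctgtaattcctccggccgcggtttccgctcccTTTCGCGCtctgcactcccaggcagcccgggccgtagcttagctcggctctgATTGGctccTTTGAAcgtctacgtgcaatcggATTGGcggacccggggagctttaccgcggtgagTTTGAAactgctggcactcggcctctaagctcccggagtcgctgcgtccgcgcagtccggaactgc
Top2a: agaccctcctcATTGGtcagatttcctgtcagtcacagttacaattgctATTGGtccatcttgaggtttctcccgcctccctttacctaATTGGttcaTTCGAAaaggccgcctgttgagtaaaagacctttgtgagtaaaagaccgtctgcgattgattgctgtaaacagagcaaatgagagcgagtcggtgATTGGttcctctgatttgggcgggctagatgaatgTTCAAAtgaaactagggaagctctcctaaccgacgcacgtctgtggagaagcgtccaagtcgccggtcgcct

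Levels of different genes were set side by side as FPKM, which allows for gene length. As deposited, FPKM did not keep a fixed ratio to CPM between libraries, so the orders below are approximate. In Sham cord the most abundant members were Pcna, the sliding clamp of DNA polymerase, at 30.9 ± 4.03 FPKM (SD, n = 3), Ccnd3 at 24.8 ± 6.35 FPKM and Cdk4 at 19.1 ± 2.64 FPKM. The mean ± SD ranges of Pcna and Ccnd3 overlapped, as did those of Ccnd3 and Cdk4, but not those of Pcna and Cdk4. The same genes led in SCI cord, where Ccnd3 (cyclin D3) stood at 52.8 ± 11.3 FPKM and Pcna at 41.7 ± 4.63 FPKM, and in SCI + SCS cord, with Pcna at 41.1 ± 0.372 FPKM and Ccnd3 at 40.1 ± 7.92 FPKM. Mki67, the gene of the Ki-67 proliferation antigen, stood far below these, at 0.251 ± 0.0888 FPKM in Sham, 0.726 ± 0.0717 FPKM in SCI and 0.609 ± 0.103 FPKM in SCI + SCS. E2f8 had the lowest mean in all 3 groups, at 0.0147 ± 0.0166, 0.0847 ± 0.0211 and 0.0762 ± 0.0287 FPKM in the same order.

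Compared with the Sham group, most cell cycle genes were significantly upregulated in the SCI group at 35 dpi. By edgeR, 30 of the 43 genes rose (adjusted p under 0.05 over 17822 rows), whereas 24.3% of all rows tested did. Only Ccne1 and Ccne2, the E-type cyclins, fell, compared with 25.0% of all rows. With a 2-fold threshold added (|log2FC| above 1), 17 genes were higher (13.4% of all rows) and Ccne1 was lower (13.6%). The log2FC was positive for 39 genes (50.8% of all rows) and negative for 4 (49.2%). At an unadjusted p under 0.05, 32 genes were higher (28.7% of all rows) and 3 lower (28.6%). The median log2FC of the 43 genes was 0.87, against 0.02 for all rows tested. The 3 SCI libraries lay above the 3 Sham libraries without overlap for 37 genes (32.6% of all rows) and below them for Ccne1, Ccne2, Foxm1 and Mcm4 (31.0%). DESeq2 called 31 genes higher and 2 lower (23.9% of its rows in each direction), and limma on log2(FPKM + 1) called 28 higher and 2 lower of 41 tested (23.0% and 23.2%). Leaving out each library in turn gave 22 to 28 genes higher, with 25 without Sham replicate 1 and 24 and 23 without SCI replicates 1 and 3, the 2 libraries with muscle transcripts. A fit without SCI replicate 1 or 3 still held the other of these, and the part of muscle tissue was not tested. Of the 32 calls, 21 held in all 6 fits that left out 1 library. Shares of all rows called in those fits are not given here. An exact permutation test of 3 against 3 rats cannot give a p under 0.1, so single genes rest on the spread shared across genes. In whole tissue, fewer cells of a type and less RNA per cell cannot be told apart, nor can more dividing cells and more RNA in each.

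**Figure D2:**
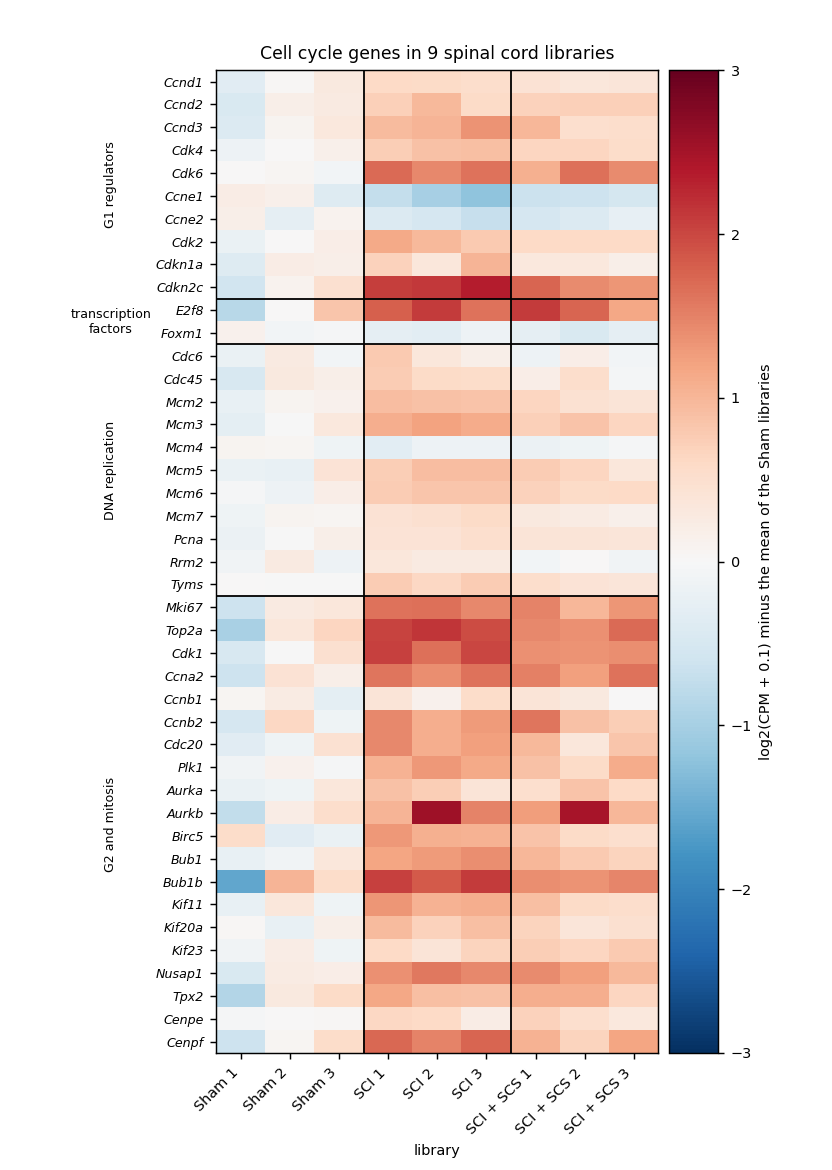
Heat map of the 43 genes (rows, grouped by role) in the 9 libraries (columns). Colour gives log2(CPM + 0.1) minus the mean of the 3 Sham libraries, red above and blue below. Most rows turn red in SCI and are paler in SCI + SCS, while Ccne1, Ccne2, Foxm1 and Mcm4 are blue in SCI.

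Among the G1 regulators, all 10 genes passed the test, 8 of them higher and 2 lower, with a median log2FC of 0.76. On mRatBN7.2, the build of the counts, Cdkn2c lies at chr5:124411124-124416278 (minus strand) and Cdk6 at chr4:30646460-30828229 (minus strand). Cdkn2c encodes p18, an inhibitor of CDK4 and CDK6. Its levels were 2.11, 3.40 and 4.43 CPM in the Sham libraries, 13.6, 14.1 and 16.6 CPM in the SCI libraries and 10.9, 8.70 and 8.12 CPM in the SCI + SCS libraries, in order of replicate number. The 3 groups did not overlap. It had the smallest adjusted p of all 43 genes in SCI against Sham (log2FC 2.14, SE 0.28, edgeR adjusted p = 0.00225), a 4.39-fold difference. Cdk6, a kinase partner of the D-type cyclins, was at 0.362, 0.375 and 0.332 CPM in Sham, 1.38, 1.14 and 1.32 CPM in SCI, and 0.856, 1.33 and 1.11 CPM in SCI + SCS. Every injured rat was above every Sham rat, and SCI and SCI + SCS overlapped. It rose by a log2FC of 1.82 (SE 0.28, edgeR adjusted p = 0.00327) after SCI.

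All 3 D-type cyclins, which couple outside signals to the cycle, were upregulated by SCI. Ccnd3 stood at 47.0, 66.1 and 77.9 CPM in Sham, 121, 127 and 159 CPM in SCI and 124, 89.0 and 89.7 CPM in SCI + SCS. SCI + SCS replicate 1 reached the SCI range and the other 2 stimulated rats lay between the groups. The log2FC of SCI against Sham was 1.07 (SE 0.20, edgeR adjusted p = 0.00646). Ccnd2 was at 39.6, 61.0 and 65.9 CPM in Sham, 89.3, 107 and 80.7 CPM in SCI, and 87.3, 89.5 and 88.4 CPM in SCI + SCS. Injured rats lay above Sham rats with or without stimulation (log2FC 0.72 for SCI, SE 0.21, edgeR adjusted p = 0.0298). Ccnd1 was at 22.6, 29.6 and 35.3 CPM in Sham, 43.2, 42.8 and 41.1 CPM in SCI, and 38.5, 36.1 and 36.6 CPM in SCI + SCS. Its groups did not overlap, and its log2FC after SCI was 0.52 (SE 0.16, edgeR adjusted p = 0.0352). The calls of Ccnd1 and Ccnd2 were not robust to single libraries. Ccnd1 was lost without SCI replicate 1, 2 or 3 or Sham replicate 2 (adjusted p between 0.0828 and 0.0972), and Ccnd2 without SCI replicate 1 or 2 or Sham replicate 2 (between 0.0612 and 0.0969).

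Cdkn1a encodes p21, the CDK inhibitor induced by p53. It was at 17.5, 26.9 and 25.9 CPM in Sham, 37.3, 29.0 and 47.1 CPM in SCI, and 28.7, 28.8 and 26.2 CPM in SCI + SCS. SCI rats varied widely but lay above Sham rats, and its log2FC was 0.67 (SE 0.23, edgeR adjusted p = 0.0471). That call was lost when any library other than SCI replicate 2 was left out (adjusted p between 0.0687 and 0.154). Cdk4 and Cdk2, the kinases of early and late G1, also rose, with log2FCs of 0.81 and 0.96. Cdk4 was not called by limma on log2(FPKM + 1), with mean levels of 19.1 FPKM in Sham and 23.7 FPKM in SCI. The E-type cyclins moved against the rest of the group. Ccne1 lies at chr1:90781949-90791101 (minus strand) and Ccne2 at chr5:24284922-24297632 (plus strand). Ccne1, which activates CDK2 at the start of DNA synthesis, was at 7.45, 7.11 and 4.88 CPM in Sham, 3.82, 3.15 and 2.70 CPM in SCI, and 4.07, 4.14 and 4.40 CPM in SCI + SCS. Every Sham rat lay above every injured rat, and the stimulated rats lay between the groups (log2FC of SCI against Sham -1.03, SE 0.24, edgeR adjusted p = 0.0136). Ccne2 was at 13.9, 10.2 and 13.4 CPM in Sham, 9.32, 8.67 and 7.71 CPM in SCI, and 8.74, 9.38 and 10.4 CPM in SCI + SCS. SCI rats lay below Sham rats, and stimulated rats overlapped both groups. It fell by a log2FC of 0.57 (SE 0.17, edgeR adjusted p = 0.0313). Ccne1 lost its call without Sham replicate 2 (adjusted p = 0.0505), and Ccne2 without SCI replicate 2 or 3 or Sham replicate 1 or 3 (between 0.0719 and 0.0907). The gene of Ccne2 overlaps Ints8 on the other strand, and reads of the 2 genes may be shared, since the use of strand in counting is not given in the sources used here.

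Neither transcription factor passed the test in SCI against Sham. E2f8 lies at chr1:98565717-98584098 (minus strand) and Foxm1 at chr4:161638816-161651362 (plus strand), again on mRatBN7.2. E2f8, a repressor that is itself induced in S phase, was at 0, 0.0795 and 0.217 CPM in Sham, 0.520, 0.667 and 0.448 CPM in SCI, and 0.660, 0.497 and 0.298 CPM in SCI + SCS. The value of 0 in Sham replicate 1 allows a level of up to 0.0455 CPM. Injured rats lay above Sham rats, at levels of few counts (log2FC 2.38, SE 0.91, edgeR adjusted p = 0.0681). Without Sham replicate 3 it passed (adjusted p = 0.0334), as it did by DESeq2 (adjusted p = 0.0385). Foxm1, the activator of mitotic genes, was at 31.8, 27.7 and 28.4 CPM in Sham, 24.4, 23.6 and 26.4 CPM in SCI, and 24.2, 21.2 and 24.1 CPM in SCI + SCS. Its Sham rats lay above all injured rats, opposite in direction to the mitotic genes (log2FC -0.26, SE 0.10, edgeR adjusted p = 0.0709). Its identifier stands on 3 rows, of which the largest is given, and with the rows summed the log2FC was -0.33 (adjusted p = 0.0291). It also overlaps Rhno1 on the other strand, so its level is uncertain. Mybl2, the gene of B-MYB, is in the list of other mitosis genes and was looked up after its values were seen. Unlike Foxm1, it rose in SCI (log2FC 1.72, SE 0.48, edgeR adjusted p = 0.0255), as the mitotic genes did. The SCI rats lay above the Sham rats for Mybl2.

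Of the 11 DNA replication genes, 7 rose in SCI cord, with a median log2FC of 0.61, and 4 did not pass the test. Pcna was at 50.3, 56.1 and 63.8 CPM in Sham, 74.9, 74.8 and 80.2 CPM in SCI, and 74.1, 74.1 and 72.8 CPM in SCI + SCS. Injured rats lay above Sham rats with or without stimulation, and its log2FC after SCI was 0.42 (SE 0.11, edgeR adjusted p = 0.0203). It was not called without SCI replicate 2 or 3 or Sham replicate 1 or 2 (adjusted p between 0.0510 and 0.0801). The MCM genes encode the 6 subunits of the replicative helicase. Mcm2, Mcm3, Mcm5, Mcm6 and Mcm7 rose, with log2FCs between 0.48 (Mcm7) and 1.11 (Mcm3). Mcm5 lost its call without SCI replicate 2 or 3 or Sham replicate 1 or 2 (edgeR adjusted p between 0.0691 and 0.0901), whereas the 4 others held in all 6 fits. Mcm7 overlaps Ap4m1 on the other strand, which stood at 21.9 CPM in Sham and 39.9 CPM in SCI, so the level of Mcm7 is uncertain. Mcm4 was the exception, with mean levels of 13.5 ± 1.10 CPM in Sham and 11.6 ± 0.759 CPM in SCI (log2FC -0.23, SE 0.13, edgeR adjusted p = 0.175). Tyms, which makes thymidylate for DNA synthesis, rose by a log2FC of 0.72. Cdc6 and Cdc45, which load and activate the helicase, and Rrm2, a ribonucleotide reductase subunit, had log2FCs of 0.53, 0.61 and 0.27 and were not called. Cdc6 lay below 0.7 CPM in all libraries.

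The G2 and mitosis genes had a higher median log2FC than the G1 regulators and the replication genes, although the highest single values were those of E2f8 and Cdkn2c. Of the 20 mitosis genes, 15 rose, 13 of them by more than 2-fold, none fell, and all 20 log2FCs were positive, with a median of 1.25. Their summed level was 33.9 to 49.1 CPM in Sham, 91.1 to 97.6 CPM in SCI and 74.7 to 82.5 CPM in SCI + SCS, so the 3 groups did not overlap. On mRatBN7.2, Mki67 lies at chr1:190496319-190522762 (minus strand), Top2a at chr10:83945735-83976744 (minus strand), Cdk1 at chr20:19266248-19281408 (plus strand) and Aurkb at chr10:53745142-53750837 (plus strand). Mki67 was at 1.89, 3.59 and 3.80 CPM in Sham, 9.30, 9.50 and 8.17 CPM in SCI, and 8.43, 6.03 and 7.51 CPM in SCI + SCS. All injured rats lay above all Sham rats, and SCI + SCS replicate 1 lay within the SCI range. The difference of SCI from Sham was 2.87-fold (log2FC 1.52, SE 0.28, edgeR adjusted p = 0.0061). Top2a, the topoisomerase that untangles replicated chromosomes, was at 0.739, 1.99 and 2.46 CPM in Sham, 6.57, 7.20 and 6.30 CPM in SCI, and 4.39, 4.16 and 5.23 CPM in SCI + SCS. The groups were fully separated, with SCI + SCS between the others (log2FC of SCI against Sham 1.93, SE 0.42, edgeR adjusted p = 0.0104).

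Cdk1, the kinase that starts mitosis, was at 0.975, 1.37 and 1.99 CPM in Sham, 6.05, 4.58 and 5.84 CPM in SCI, and 3.76, 3.69 and 3.79 CPM in SCI + SCS. Its groups were separated in the same order, with very little spread among the stimulated rats (log2FC of SCI against Sham 1.90, SE 0.30, edgeR adjusted p = 0.00364). Cenpf, a kinetochore protein of G2 and mitosis, was at 0.267, 0.488 and 0.732 CPM in Sham, 1.76, 1.49 and 1.81 CPM in SCI, and 1.07, 0.795 and 1.19 CPM in SCI + SCS. It was also separated in that order and rose after SCI by a log2FC of 1.74 (SE 0.40, edgeR adjusted p = 0.0128). Aurkb, a kinase of the chromosomal passenger complex, behaved differently. It was at 0.865, 1.77 and 2.21 CPM in Sham, 3.15, 9.35 and 4.42 CPM in SCI, and 3.73, 8.80 and 3.10 CPM in SCI + SCS. SCI replicate 2 and SCI + SCS replicate 2 stood apart from the 7 other rats, whose highest value was 4.42 CPM, and the log2FC of SCI against Sham was 1.78 (SE 0.52, edgeR adjusted p = 0.0278). Without SCI replicate 2 it was 1.20 and the call was lost, as it was without SCI replicate 3 or Sham replicate 1 or 2 (adjusted p between 0.0524 and 0.0791). Bub1b, a spindle checkpoint kinase, was at 0, 0.500 and 0.332 CPM in Sham, 1.13, 0.965 and 1.17 CPM in SCI, and 0.674, 0.653 and 0.721 CPM in SCI + SCS. Its groups were separated, but with no count in Sham replicate 1 the spread was wide (log2FC 1.92, SE 0.97, edgeR adjusted p = 0.143), and without that library it passed (log2FC 1.36, adjusted p = 0.0356), as it did in limma on log2(FPKM + 1).

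The other genes of this group that rose were Ccna2, Ccnb2, Cdc20, Plk1, Aurka, Birc5, Bub1, Kif11, Kif20a and Nusap1, with log2FCs between 0.66 (Aurka) and 1.52 (Ccna2, the cyclin of S phase and G2). Those of Ccnb2, Aurka and Birc5 were lost in 4 or 5 of the 6 fits that left out 1 library. Ccnb1 (the main mitotic cyclin), Kif23, Tpx2 and Cenpe did not pass, with log2FCs of 0.34 to 0.87. Kif23, a motor of the midzone in cytokinesis, was at 1.42, 1.78 and 1.38 CPM in Sham, 2.35, 2.001 and 2.46 CPM in SCI, and 2.60, 2.44 and 2.68 CPM in SCI + SCS. Its injured rats lay above Sham rats in both groups, at an edgeR adjusted p of 0.0881 for SCI.

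**Figure D3:**
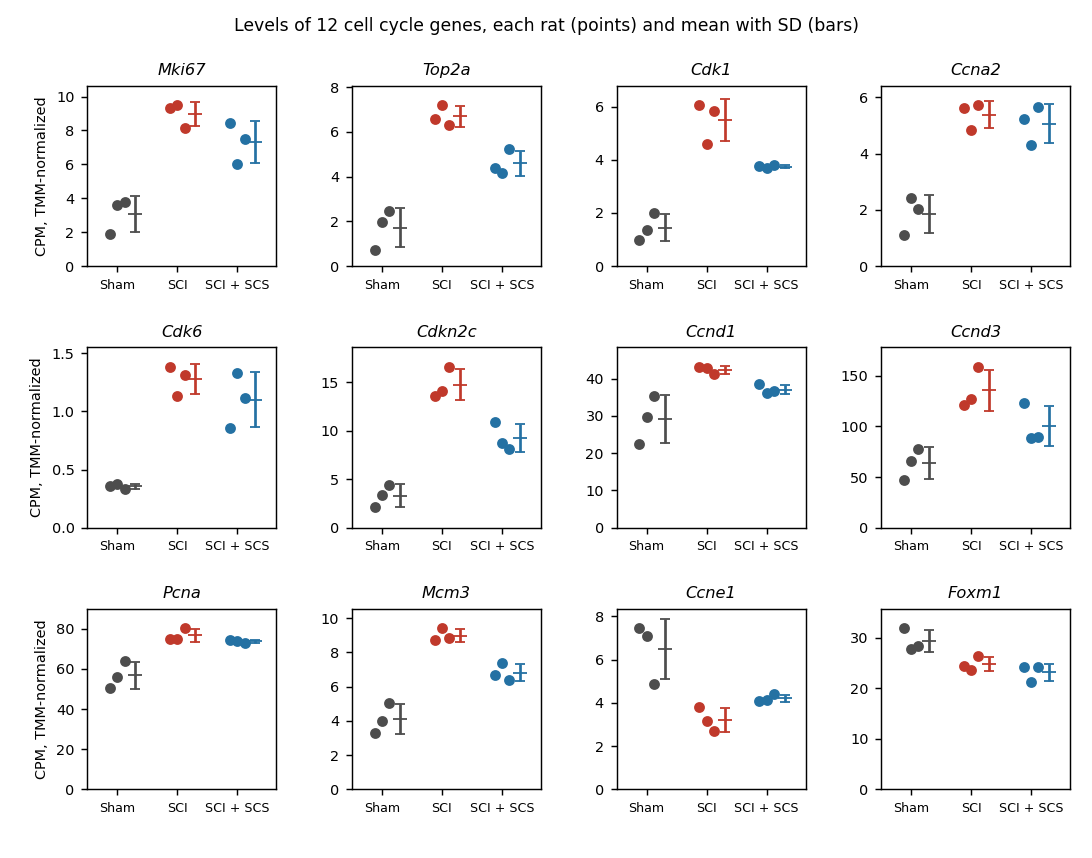
TMM-normalized CPM of 12 cell cycle genes, with 1 point for each rat (replicates 1 to 3 from left to right), and beside them the mean with its SD (n = 3). Vertical axes start at 0 and differ between panels. Top2a, Cdk1 and Cdkn2c are separated into 3 levels, Sham lowest and SCI highest, while Ccne1 and Foxm1 are highest in Sham.

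Cell cycle genes outside the 44 were counted in lists written by function. The share of all rows called was 24.3% higher and 25.0% lower, and each list is to be read against it. Of 72 other mitosis genes tested, 35 were higher and 5 lower in SCI than in Sham (median log2FC 0.84). Of 45 other replication genes, 12 were higher and 7 lower (median 0.26). The share of these replication genes called higher was close to that of all rows. Among the mitosis genes, Cenpw and Troap rose most (log2FC 2.31 and 2.13). Anln fell most, by a log2FC of 2.33 (edgeR adjusted p = 0.00137), from 208 ± 29.1 CPM in Sham to 41.9 ± 11.4 CPM in SCI. Anillin is a scaffold of the cytokinetic ring and is also a protein of central myelin, and summed oligodendrocyte markers were at 59129 to 82941 CPM in Sham and 17906 to 33353 CPM in SCI, with 6 of 8 called lower. Their part in the fall of Anln was not tested. Esco2, which joins sister chromatids, fell by a log2FC of 0.94. Among replication genes, Mcm10 and Tk1 (thymidine kinase) rose most and Mcm8 and Fen1 (the flap endonuclease) fell most, with log2FCs of 1.90, 1.67, -0.98 and -0.86. Tk1 varied widely among SCI rats (5.40 ± 3.48 CPM).

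Of 27 other G1 genes, 8 were higher and 5 lower, with a median of 0.03, which is near the shares of all rows (24.3% and 25.0%) and their median of 0.02. Myc, a driver of cell growth and division, rose from 5.27 ± 0.750 to 16.9 ± 2.59 CPM (log2FC 1.67, SE 0.18, edgeR adjusted p = 0.00156), while Mycn fell by a log2FC of 1.04 and Ccnc, cyclin C of the Mediator kinase module, by 0.61. Of the CDK inhibitors outside the members, Cdkn2b (p15) rose by a log2FC of 1.20. The 4 others in the list were looked up after their values were seen. Cdkn2a and Cdkn1b (p27) rose by 1.11 and 0.51, and Cdkn1c and Cdkn2d, at 0.32 and -0.20, were not called. Of 17 p53 target and growth arrest genes, 8 were higher and 1 lower (median 0.42), led by Gadd45g and Gadd45b (log2FC 1.75 and 1.30), with Zmat3 lower at -1.69. The 5 core genes of the DREAM and MuvB complex, which represses cell cycle genes in resting cells, had log2FCs between -0.17 and 0.27 (median 0.18), and their smallest edgeR adjusted p was 0.0983.

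Markers of cell types were counted in the same way, to be read against 24.3% of all rows called higher and 25.0% lower. Summed macrophage markers were at 404 to 604 CPM in Sham and 3521 to 4977 CPM in SCI, with 8 of 10 called higher, and T cell markers were at 22.9 to 60.3 and 145 to 207 CPM, with 7 of 9 higher. Microglia markers were at 373 to 530 and 729 to 1089 CPM, with 3 of 7 tested markers higher, and Siglech had no count in any Sham library. Fibroblast markers were at 463 to 2118 and 3746 to 5827 CPM (7 of 8 higher), and those of oligodendrocyte precursors at 1464 to 1577 and 940 to 1489 CPM (1 higher and 2 lower of 8). Of 8 astrocyte markers, 0 were higher and 3 lower. Of 5 ependymal markers, 2 were higher and 0 lower, and of 8 endothelial markers, 2 were higher and 1 lower. All 8 neuron markers were lower, at 4814 to 10825 CPM in Sham and 722 to 2516 CPM in SCI. The cells that express the cell cycle genes cannot be named from whole tissue, and the part of these cell types in the results was not tested.

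**Figure D4:**
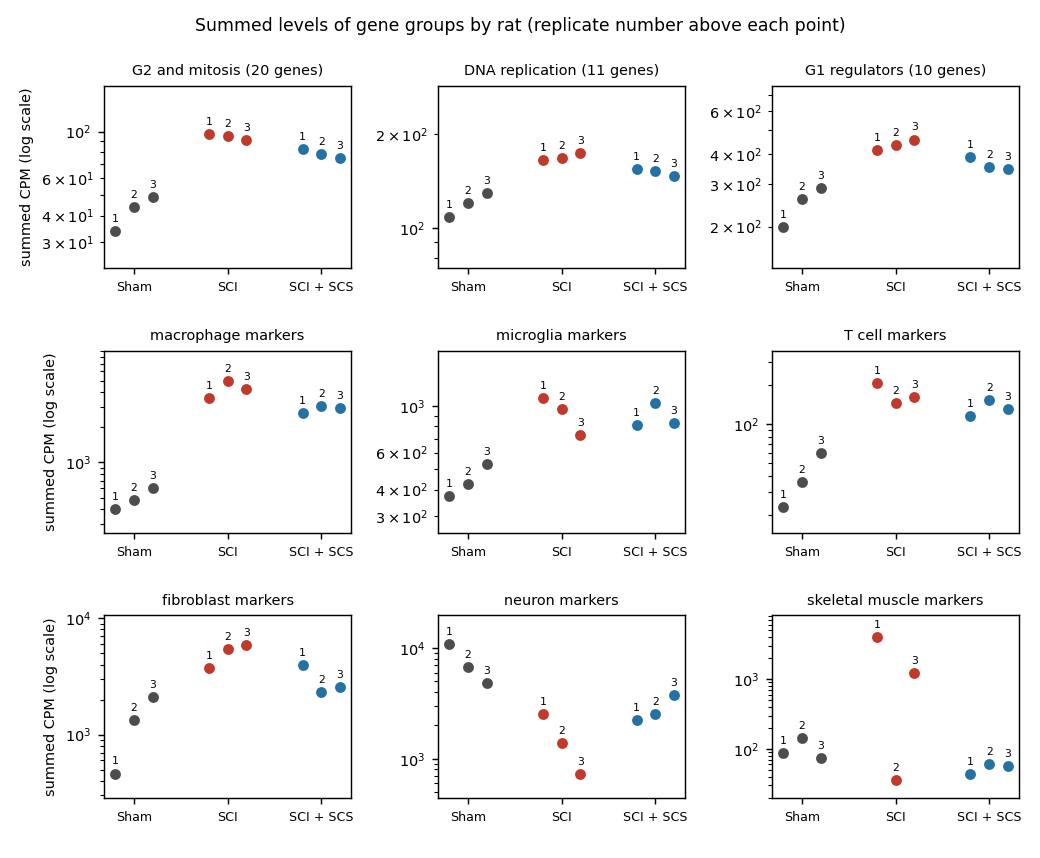
Summed TMM-normalized CPM (log scale) of 3 role groups of cell cycle genes and 6 lists of cell type markers, 1 point for each rat with its replicate number. The 20 G2 and mitosis genes lie at 33.9 to 49.1 CPM in Sham, 91.1 to 97.6 CPM in SCI and 74.7 to 82.5 CPM in SCI + SCS. Macrophage, T cell and fibroblast markers are also higher in SCI than in Sham, and neuron markers lower.

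For the effect of HF-SCS, the SCI + SCS group was compared with the SCI group. No cell cycle gene passed the edgeR test (0 of 43, with 1 of 17663 rows called higher, 0.00566%, and 0% lower), and the smallest adjusted p among the members was 0.0885, for Cdkn2c. At an unadjusted p under 0.05, 16 of 43 genes were lower (10.9% of all rows) and 0 were higher (13.3%). The log2FC was negative for 38 genes (50.7% of all rows) and positive for Ccne1, Ccne2, Mcm4, Kif23 and Cenpe (49.3%), with a median of -0.27 against -0.01 for all rows. The 3 stimulated rats lay below the 3 SCI rats without overlap for 22 genes (13.9% of all rows) and above them for Ccne1 (15.7%). DESeq2 called 5 genes lower, namely Cdkn2c, Mcm2, Mcm3, Top2a and Cdk1 (6.41% of rows), and 0 higher (8.28%), and limma on log2(FPKM + 1) called 0 of 42 in either direction (0.109% of rows higher and 0.0687% lower). SCI libraries are part of this comparison and of that with Sham, so a high or low value among them moves both.

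The largest negative values were small beside those of the injury. Cenpf had a log2FC of -0.72 (SE 0.26, edgeR adjusted p = 0.155), Cdkn2c one of -0.67 (SE 0.16) and Bub1b one of -0.66 (SE 0.26, adjusted p = 0.175). In each of these genes the stimulated rats lay between the Sham and SCI rats. Cdk1 and Top2a were at log2FCs of -0.54 (SE 0.17) and -0.53 (SE 0.16), with DESeq2 adjusted p of 0.0311 and 0.0198 and edgeR adjusted p of 0.124 and 0.116. Mki67 was at -0.29 (SE 0.17, edgeR adjusted p = 0.332). Among the genes called higher after injury, Aurka was nearest to no difference (log2FC -0.01, SE 0.17). Pcna and Ccnd2 came next, with log2FCs of -0.05 in both (SE 0.07 and 0.11). The stimulated rats lay below all SCI rats for Pcna and overlapped them for Aurka and Ccnd2. The largest positive values were those of Ccne1 (0.39, SE 0.19, edgeR adjusted p = 0.253), Kif23 (0.19, SE 0.19) and Ccne2 (0.16, SE 0.14). By role, the median log2FC was -0.21 for G1 regulators, -0.29 for replication genes and -0.29 for G2 and mitosis genes. In 35 of 43 genes the mean of SCI + SCS lay between the Sham mean and a higher SCI mean. That order draws on shared groups and was not tested. Its share over all rows is not given here, so it is not read as particular to these genes. Across the lists of other cell cycle and p53 target genes the smallest edgeR adjusted p was 0.0782, with list medians of -0.23 to -0.01, and DESeq2 called 2 of their genes higher and 7 lower, shares below those of all its rows (8.28% and 6.41%). Across the marker lists the smallest was 0.0719. Summed macrophage markers were at 2627 to 3018 CPM in SCI + SCS, below all SCI rats, and fibroblast markers at 2325 to 3923 CPM, overlapping them. T cell markers were at 116 to 153 CPM, also overlapping. By gene, all 9 T cell log2FCs were negative (median -1.40, smallest edgeR adjusted p 0.0782). In 7 of 9 the stimulated rats lay below all SCI rats. The same held for 8 of 10 macrophage markers and 1 of 8 fibroblast markers (13.9% of all rows). Other lists did not fall. Log2FCs were positive for 8 of 8 astrocyte markers (median 0.51) and 6 of 8 precursor markers (0.16), against 49.3% of all rows. Microglia markers were split, with 4 positive and 3 negative (median 0.01), while ependymal markers had 1 positive and 4 negative (median -0.42). The part of these cell types in the values of the cell cycle genes was not tested.

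Compared with the Sham group, 20 of 43 genes were significantly higher in the SCI + SCS group (16.2% of 17640 rows) and Foxm1 was lower (16.2%). With the 2-fold threshold these were Cdk6, Cdkn2c, Mki67, Top2a, Cdk1, Ccna2, Aurkb and Nusap1 (8 genes, against 6.28% of all rows), with 0 lower (5.44%). At an unadjusted p under 0.05, 28 were higher and 3 lower (23.1% of all rows in each direction). The log2FC was positive for 37 genes (50.5%) and negative for 6 (49.5%). The median log2FC was 0.66, against 0.01 for all rows, and the libraries did not overlap for 31 genes higher (27.2%) and for Ccne1 and Foxm1 lower (26.0%). By role, 5 G1 regulators, 5 replication genes and 10 G2 and mitosis genes rose. Among the named genes with the largest values were E2f8 (log2FC 2.22, SE 0.92, edgeR adjusted p = 0.105), Aurkb (1.69, SE 0.51, adjusted p = 0.0464) and Cdk6 (1.63, SE 0.29, adjusted p = 0.0109). Cdkn2c, Top2a, Cdk1 and Mki67 rose by log2FCs of 1.48, 1.41, 1.37 and 1.24. Kif23, which had not passed in SCI, rose by 0.75 (SE 0.20, edgeR adjusted p = 0.0301). It lost this call in each of the 6 fits that left out 1 library (adjusted p between 0.0540 and 0.0890), and its difference between SCI + SCS and SCI is the 0.19 given above. Ccne1 and Ccne2, at -0.62 and -0.40, were not called (edgeR adjusted p = 0.0515 and 0.0941). Cdkn1a and Ccnd1, at 0.25 and 0.35, were not called either, and neither was Ccnd3 at 0.66.

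These calls depended strongly on which libraries were in the fit. The number of genes called higher was 2, 7 and 5 without SCI + SCS replicates 1, 2 and 3, and 12, 3 and 25 without Sham replicates 1, 2 and 3. Other list genes called higher numbered 13, 16 and 23, and 25, 14 and 39, in the same order. Shares of all rows called in these fits are not given here, so the change is not read as particular to the members. Cdk4 and Cdk6 were the 2 genes called in all 6 of these fits, but limma on log2(FPKM + 1) did not call Cdk4 (23.5 FPKM in SCI + SCS and 19.1 FPKM in Sham). Foxm1 (log2FC -0.34, SE 0.10, edgeR adjusted p = 0.043) lost its call in every one of them (adjusted p between 0.0528 and 0.122), as did Kif23 and Tyms. DESeq2 called 24 genes higher (18.6% of its rows) and 2 lower (19.7%), and limma on log2(FPKM + 1) 19 of 40 tested higher (18.4%) and 0 lower (14.0%). Among other cell cycle genes, to be read against 16.2% of all rows in each direction, 17 of 72 mitosis genes were higher and 3 lower, led by Cenpa and Ube2c (log2FC 1.89 and 1.74) and by Anln and Cdc25c (-1.39 and -1.12). Of 45 replication genes 4 were higher and 4 lower, with Tk1 highest (log2FC 2.19, SE 0.22, edgeR adjusted p = 0.00336) and Orc4 lowest (-0.71). Of 27 G1 genes 3 were higher and 3 lower, with Myc at 1.32, E2f4 at 0.49, Tfdp2 at -0.45 and Ccnc at -0.40. Of 17 p53 target and growth arrest genes 7 were higher, with Gadd45g at 1.71 and Gadd45b at 0.97, and Zmat3 was lower at -1.16. The DREAM and MuvB core genes lay between -0.05 and 0.36, with a smallest adjusted p of 0.122.

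**Figure D5:**
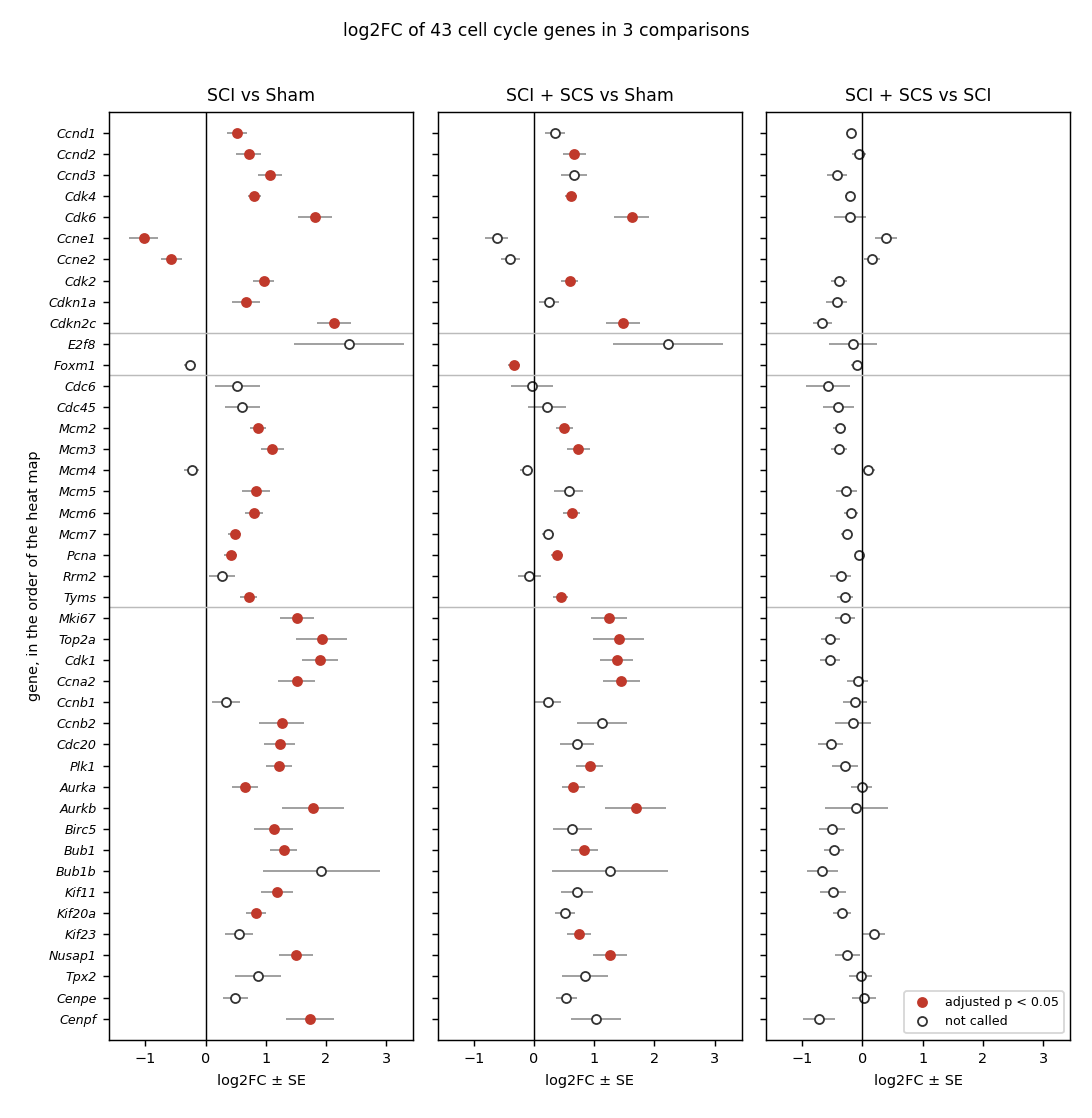
log2FC of the 43 genes in the 3 comparisons, with bars of 1 SE from edgeR. Filled red points have an adjusted p under 0.05 and open points do not. Red points number 32 in SCI vs Sham, 21 in SCI + SCS vs Sham and 0 in SCI + SCS vs SCI, where 38 of 43 values lie below 0.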

How the data were processed

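RNA was sequenced from the spinal cord of 9 rats (3 groups of 3, as the labels give them). The submitters' processing notes name fastp 0.23.2, HISAT2 2.2.1 and the build mRatBN7.2, and the counting program is not given in the sources used here. The authors deposited raw counts per gene and, in a separate table, FPKM, which allows for gene length and library total. Its ratio to the counts was not fixed for a gene. Cdk4 was at 77.7 CPM and 21.8 FPKM in SCI + SCS replicate 1 but at 71.9 CPM and 27.4 FPKM in replicate 3. What else enters the FPKM was not tested. Where an identifier stood on several rows, the one with the highest total was used.

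Main tests ran on the deposited counts of the 6 libraries of each comparison, with no covariates, as quasi-likelihood tests of edgeR 4.0.16 (R 4.3.3) after TMM scaling and the default filter on low counts, which all 43 genes passed. Benjamini-Hochberg adjustment was made over all rows tested. The SE of a log2FC is its size over the root of the F statistic. CPM used TMM factors over all 9 libraries. The authors' methods name DESeq2, which was run as an alternative (DESeq2 1.42.0). FPKM was tested as log2(FPKM + 1) and log2(FPKM + 0.1) with limma 3.58.1, for rows with a mean FPKM of at least 0.1, a scale that understates fold changes of low genes. The tests were run on simulated counts with large differences and the same dispersion in all genes. That check does not cover differences as small as those between SCI + SCS and SCI.

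The genes, lists and tests were chosen with earlier results of these data known, so no set test was made and no p is given for a list. Per-library values are given for 11 genes fixed by name and for the 3 highest and 3 lowest log2FCs of each comparison, and from each list up to 2 genes in each direction. Mybl2 and further CDK inhibitors were added from the lists after their values were seen. Of the 43 genes, 8 overlap another gene (Ccnd3, Ccne2, Foxm1, Mcm7, Ccna2, Aurka, Kif20a and Tpx2). Of these, 2 (Foxm1 and Mcm7) also have an identifier on more than 1 row. The levels of all these genes are uncertain. Promoters come from RefSeq on GRCr8, a build other than that of the counts, and are matched by symbol only.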

Additional observations from a re-analysis of the deposited data

How the results depend on the processing

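The median log2FC of the cell cycle genes kept its sign under every alternative that was run. No gene given with per-library values reversed in either comparison with Sham. Cdc6 and Rrm2, given without them, changed sign in SCI + SCS against Sham when 1 library was left out (-0.19 to 0.17 and -0.15 to 0.073). In SCI against Sham, the median was 0.50 in limma on log2(FPKM + 1) and 0.48 without its filter, a setting in which 1 gene was lower. Leaving out 1 library gave 22 to 28 genes higher, 1 to 2 lower, and 30 to 53 and 7 to 16 other list genes higher and lower. In SCI + SCS against SCI, DESeq2 called 5 genes lower and 2 and 7 other list genes higher and lower. The median was -0.11 in limma with and without a filter, and -0.36 to -0.23 when 1 library was left out. Leaving out 1 library turned the sign there for Aurkb (range -0.71 to 0.46), E2f8 (-0.44 to 0.086) and Ccnd2 (-0.15 to 0.058). It also did for Ccna2 (-0.17 to 0.023), Ccnb2 (-0.48 to 0.0069), Aurka (-0.15 to 0.082), Tpx2 (-0.11 to 0.096) and Cenpe (-0.11 to 0.11). In SCI + SCS against Sham, the count of genes lower was 2 by DESeq2, with DESeq2 size factors, with all 9 libraries in 1 fit and with at least 10 counts in every library, and 0 in the 3 limma settings, where the median was 0.36 with the pseudocount of 1. Leaving out 1 library gave 2 to 25 genes higher, 0 to 1 lower, and 13 to 39 and 4 to 12 other list genes higher and lower. Fewer libraries enter these fits, the shares of all rows called in them are not given here, and the cause was not tested further.

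Replicates with the same number were separate rats. Correlations of their departures from the group mean were -0.0551 to 0.24 in SCI against Sham and -0.201 to 0.0018 in SCI + SCS against SCI. In SCI + SCS against Sham they were -0.328 to 0.0292. Not every library correlated best with its own number, but SCI replicates 1 and 3 did with Sham replicates 1 and 3 (0.24 and 0.196). With 3 rats in a group, such correlations cannot tell whether a number also marks a shared batch. With a replicate block, 27 genes were higher and 2 lower in SCI against Sham, and 0 were called in SCI + SCS against SCI. In SCI + SCS against Sham, the block gave 0 genes higher and 0 lower, with 8 and 2 other list genes. The lists held 27 G1, 45 replication, 72 mitosis, 17 p53 target and 5 DREAM core genes. Shares of all rows called with the block are not given here, so these counts are not read as particular to the members. With 150 bases before the gene start, E2F, CHR and CCAAT motifs were in 7, 11 and 20 of 31 promoters, and 0 of 8 replication promoters held a CHR motif. Levels near the floor (E2f8, Bub1b, Cdc6) are limited by depth.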
